A study of Mus musculus with 13 samples.

Results

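Eph receptors are receptor tyrosine kinases of the cell surface, and ephrins are the membrane-bound ligands they meet on neighbouring cells. The EphA receptors mainly bind ephrin-A ligands, which a GPI anchor holds in the membrane, and the EphB receptors mainly bind ephrin-B ligands, which cross the membrane and signal back into their own cell. Contact between them drives repulsion, cell sorting and boundary formation, and in connective tissue it governs how fibroblasts segregate, spread and contract. The 10 genes described here are the receptors Epha2, Epha3, Epha4, Epha7, Ephb2, Ephb3 and Ephb4 and the ligands Efna5, Efnb1 and Efnb2, taken by symbol from the 25655 genes of each table. They were listed with earlier results of these data known: Epha3 had been among the genes with the lowest p values for genotype. The genotype differences below are therefore descriptions, with no test. All 10 genes passed the filter of 1 TPM (transcripts per 1000000) in 6 or more cultures.

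RNA was sequenced from 13 untreated primary cultures of neonatal mouse dermal fibroblasts, 6 wild type (WT) and 7 homozygous for the G234D allele of Fbn1 (Fbn1 G234D/G234D), the gene for the microfibril protein fibrillin-1. The question put to the cultures was whether the mutation changes fibroblasts themselves. Set 1 held W1 to W4 (WT) and M1 to M4 (G234D), and set 2 held W5 and W6 (WT) and M5 to M7 (G234D). By the animal numbers in the titles, set 1 falls into lower numbers (W1, W2, M1 and M2, here the earlier animals) and higher ones (W3, W4, M3 and M4, the later animals). W1 has a number well apart from those of W2, M1 and M2, so the numbers alone do not place it with them. This division was drawn with earlier results known, and the labels say nothing of dates, litters, sex or strain. Each culture came from a separate mouse, per the series text. A point mutation need not change the level of its transcript, so the Fbn1 level does not check the genotype labels.

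Between 11741 and 12042 genes reached 1 TPM in a culture. TPM hold no read totals, so the depth behind each value is unknown. The 11 fibroblast markers were detected in all 13 cultures at very different levels. Col1a1, a chain of type I collagen, was between 9405 and 14553 TPM, Dcn between 62.0 and 194 TPM and Lum between 5.37 and 19.7 TPM. Markers of other cells stood apart in M1 and M2. The summed level of 10 Schwann cell and melanocyte markers was 141 and 143 TPM there against 25.3 to 51.2 TPM elsewhere, and that of 10 skeletal muscle markers was 303 and 259 TPM against 62.8 to 149 TPM. The fibroblast markers of these cultures were mixed. The receptor gene Pdgfra was lowest in them, at 37.8 and 48.7 TPM against 83.3 to 143 TPM elsewhere. Pdgfrb, Col1a2 and Col3a1 were lowest there too, by smaller margins. Dcn (100 and 90.6 TPM in M1 and M2, 62.0 and 69.8 in W1 and W2) was instead higher than in WT of the earlier animals. So was Vim (4074 and 4051 TPM against 3705 and 3689). Results that rest on M1 and M2 are therefore given without them as well, where that can be done. M1 and M2 are the only G234D cultures of the earlier animals. The change of the genotype difference between earlier and later animals thus rests on them and cannot be fitted without both. Less RNA of a gene per cell and fewer cells that express it cannot be told apart in such bulk samples.

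The cultures expressed most of the Eph and ephrin family. Over the 22 genes of the family in the tables, EphB receptors summed to 160 ± 18.6 TPM (SD, n = 13), ephrin-B ligands to 124 ± 6.20, EphA receptors to 75.9 ± 6.88 and ephrin-A ligands to 58.4 ± 6.54 TPM. The 10 listed genes made up 84.3% to 86.4% of the family's TPM in every culture. TPM are scaled by transcript length, so levels of different genes can be set side by side. RNA of receptors and of ligands of the B class was thus present at once in the same dishes, and protein was not measured.

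**Figure D1:**
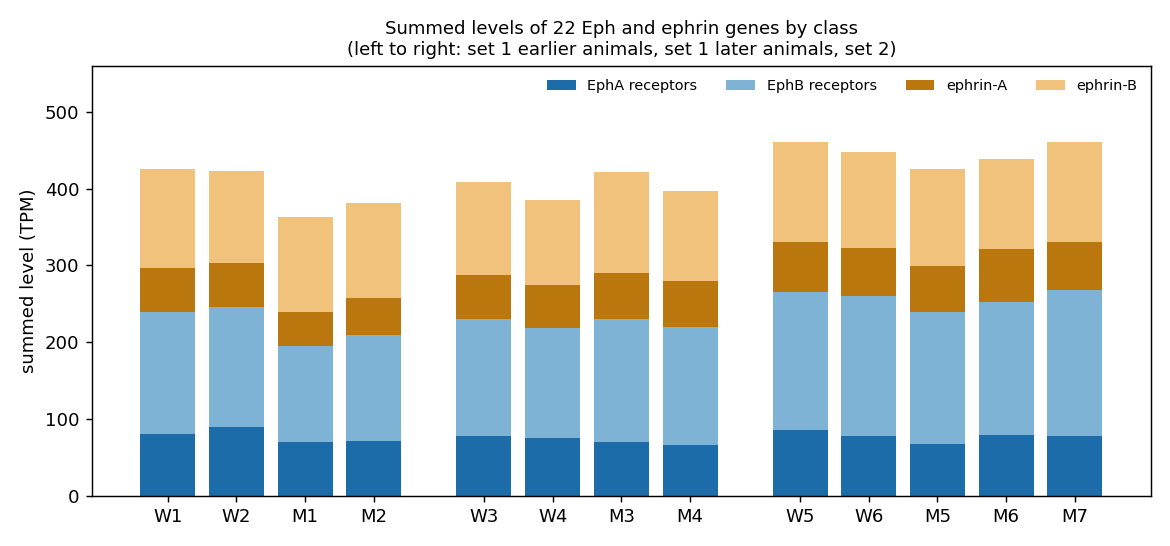
Summed level (TPM) of 9 EphA, 5 EphB, 5 ephrin-A and 3 ephrin-B genes in each of the 13 cultures, stacked by class. EphB receptors were the largest class in 13 of 13 cultures, and their sum was lowest in M1 (126 TPM) and M2 (138 TPM).

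Ephb4, a receptor for ephrin-B2 best known from veins, was the most abundant of the 10 genes, at 77.9 ± 7.70 TPM (SD, n = 13 here and for the levels that follow). Efnb1, the X-linked ligand that sorts cells in craniofacial development, stood at 65.3 ± 7.04 TPM, and Ephb4 was above it in 13 of 13 cultures. Efnb2, the ligand of Ephb4, stood at 56.7 ± 5.44 TPM. Efnb1 was above Efnb2 in only 9 of 13 cultures, so the order of these neighbours did not hold over the cultures. Ephb3 followed at 43.9 ± 8.05 TPM, below Efnb2 in 10 of 13 cultures. Epha3, a receptor for ephrin-A5, stood at 34.5 ± 7.55 TPM and Ephb2, a receptor for several B ligands and for ephrin-A5, at 31.4 ± 3.59 TPM. Epha3 was above Ephb2 in 8 of 13 cultures, so this pair too had no fixed order. Epha4, a receptor that binds ligands of both classes, was at 21.1 ± 3.69 TPM and below Ephb2 in 13 of 13 cultures. Efna5, the ligand of several EphA receptors, was at 12.9 ± 1.77 TPM and Epha2, a receptor prominent in epithelia, at 9.88 ± 2.10 TPM, with Efna5 the higher in 10 of 13. Epha7 was lowest at 3.66 ± 0.404 TPM.

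Ephb4 and Efnb2 are also textbook genes of veins and arteries, and endothelial markers were scarce. The adhesion genes Pecam1 and Cdh5 reached at most 0.350 and 1.54 TPM, and Flt1 made up most of the summed level of the 8 endothelial markers, 17.8 to 28.2 TPM. Keratinocyte markers, of cells that express Epha2 and Efnb1, were low as well: Krt14 reached at most 3.96 TPM and the sum of 9 markers at most 8.91 TPM.

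Sequence is shown for 3 genes whose values separated groups of cultures below: Epha3 by genotype, Efna5 by animal number and Ephb4 by the difference of genotype between animal numbers. Each line gives the 250 bases before the start of the gene, 5′ to 3′ on the gene's strand, from RefSeq on GRCm38.p6, the patch release of the build that mm10 names. The windows are chr16:63864176-63864425 on the minus strand for Epha3, chr17:62881318-62881567 on the minus strand for Efna5 and chr5:137349859-137350108 on the plus strand for Ephb4. Capitals mark the motifs searched for on both strands. The GC box, which Sp1 binds, was searched as the letters GGGCGG. The second motif was the CCAAT box, searched by its own name. For the TATA box the letters searched were TATAAA. No matches overlap in these windows.
Epha3: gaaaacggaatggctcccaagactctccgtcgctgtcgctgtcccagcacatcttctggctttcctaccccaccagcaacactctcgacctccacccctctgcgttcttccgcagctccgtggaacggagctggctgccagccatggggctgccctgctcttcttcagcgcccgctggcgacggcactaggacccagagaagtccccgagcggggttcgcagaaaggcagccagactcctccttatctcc
Efna5: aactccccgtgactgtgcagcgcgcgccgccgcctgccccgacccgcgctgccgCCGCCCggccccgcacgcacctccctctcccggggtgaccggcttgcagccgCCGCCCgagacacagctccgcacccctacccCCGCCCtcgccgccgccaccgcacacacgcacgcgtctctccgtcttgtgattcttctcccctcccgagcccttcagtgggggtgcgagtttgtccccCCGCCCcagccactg
Ephb4: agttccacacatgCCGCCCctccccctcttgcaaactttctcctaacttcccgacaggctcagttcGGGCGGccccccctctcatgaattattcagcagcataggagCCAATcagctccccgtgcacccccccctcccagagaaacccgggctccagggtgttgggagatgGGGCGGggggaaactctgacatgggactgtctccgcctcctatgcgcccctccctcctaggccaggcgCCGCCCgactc
The Epha3 window held none of these letters, while Efna5 held 4 GC boxes and Ephb4 4 GC boxes and 1 CCAAT box. Of the 10 genes 7 held a GC box in this window, 6 a CCAAT box and 1 (Efnb2) a TATA box, against 32.7%, 33.8% and 12.4% of 32851 windows of the same length. The window of Efna5 was 74.8% G and C with 32 CpG pairs, that of Epha3 62.8% with 16 and that of Ephb4 64.0% with 12, where the median window had 52.4% and 6. These matches describe the letters only, and binding was not measured.

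Epha3 was lower in G234D than in WT cultures, with no overlap in any of the animal groups. The gene (ENSMUSG00000052504) lies on the minus strand of chromosome 16 from 63543534 to 63864175 in mm10. Among the earlier animals it stood at 40.3 TPM in W1 and 51.1 in W2 against 21.7 in M1 and 26.2 in M2. Among the later animals it stood at 37.4 in W3 and 36.5 in W4 against 29.6 in M3 and 30.6 in M4. In set 2 it stood at 40.6 in W5 and 37.5 in W6 against 28.1 in M5, 35.6 in M6 and 32.9 in M7. The highest G234D culture, M6, lay just below the lowest WT culture, W4, so the genotypes did not overlap over the 13 cultures either, and M1 and M2 were the lowest of all.

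The mean of Epha3 in set 1 was 41.3 ± 6.73 TPM for WT and 27 ± 4.05 TPM for G234D (SD, n = 4 each), and in set 2 it was 39.0 ± 2.21 (SD, n = 2) and 32.2 ± 3.78 TPM (SD, n = 3). On the log2(TPM + 1) scale, which is used for every difference below, G234D minus WT was −0.47 over both sets, adjusted for set (SE 0.103, 95% interval −0.70 to −0.25), a 1.39-fold lower level. Within the animal groups it was −0.90 (earlier), −0.29 (later) and −0.27 (set 2). Without both M1 and M2 it was −0.36 over both sets. Epha3 made up 47.8% to 57.3% of the EphA receptor TPM in WT cultures and 31.3% (M1) to 46.8% in G234D cultures. Over all genes, 0.427% lay below WT without overlap in each of the 3 animal groups (51 of 11942), and 0.888% lay above WT. Epha3 was also without overlap in set 1 alone, as 2.19% of genes were, and in set 2 alone, as 7.02% were. Since Epha3 was listed for this difference, nothing is read from these shares. The other 9 genes showed no such separation.

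Macrophage markers, taken as a sum, were higher in G234D than in WT cultures within each animal group. The summed level of 10 macrophage markers ran from 15 to 36 TPM in WT and from 60.4 to 83.9 TPM in G234D cultures among earlier animals. Among later animals the WT range was 14.7 to 17.4 TPM and the G234D range 18.8 to 20.2 TPM, and for set 2 the ranges were 37.6 to 42.6 and 45.6 to 68.1 TPM. Unlike Epha3, the sum overlapped over all cultures, since M3 and M4 lay below W1, W5 and W6. Each single marker was apart among the earlier animals, but most overlapped among the later animals and in set 2. Among later animals C1qb was 1.81 and 2.47 TPM in WT and 1.67 and 4.23 in G234D, whereas C1qa was apart (2.84 and 2.49 against 3.37 and 3.48). In set 2 C1qa overlapped (10.4 and 8.31 TPM in WT, 15.7, 10.3 and 11.5 in G234D) and C1qb was apart. The Schwann cell and melanocyte sum was likewise higher in G234D cultures of the earlier and the later animals (30.9 to 32.9 TPM in W3 and W4, 37.8 to 51.2 in M3 and M4), and overlapped in set 2. The skeletal muscle sum was lower in M3 and M4 (62.8 to 94.0 TPM) than in W3 and W4 (116 to 149 TPM). Most of that sum was Acta1, at 74.4 and 54.2 TPM in M3 and M4 and 106 and 124 in W3 and W4. Tnnt3, Tnnc2 and Myh3 overlapped there. In set 2 the sum overlapped (69.7 to 82.8 TPM in WT, 82.2 to 108 in G234D). Myog, Myod1 and Tnnc2 were higher in every G234D culture of set 2, while Acta1, Tnnt3 and Myh3 overlapped. The part of these cells in the Epha3 difference was not tested.

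**Figure D2:**
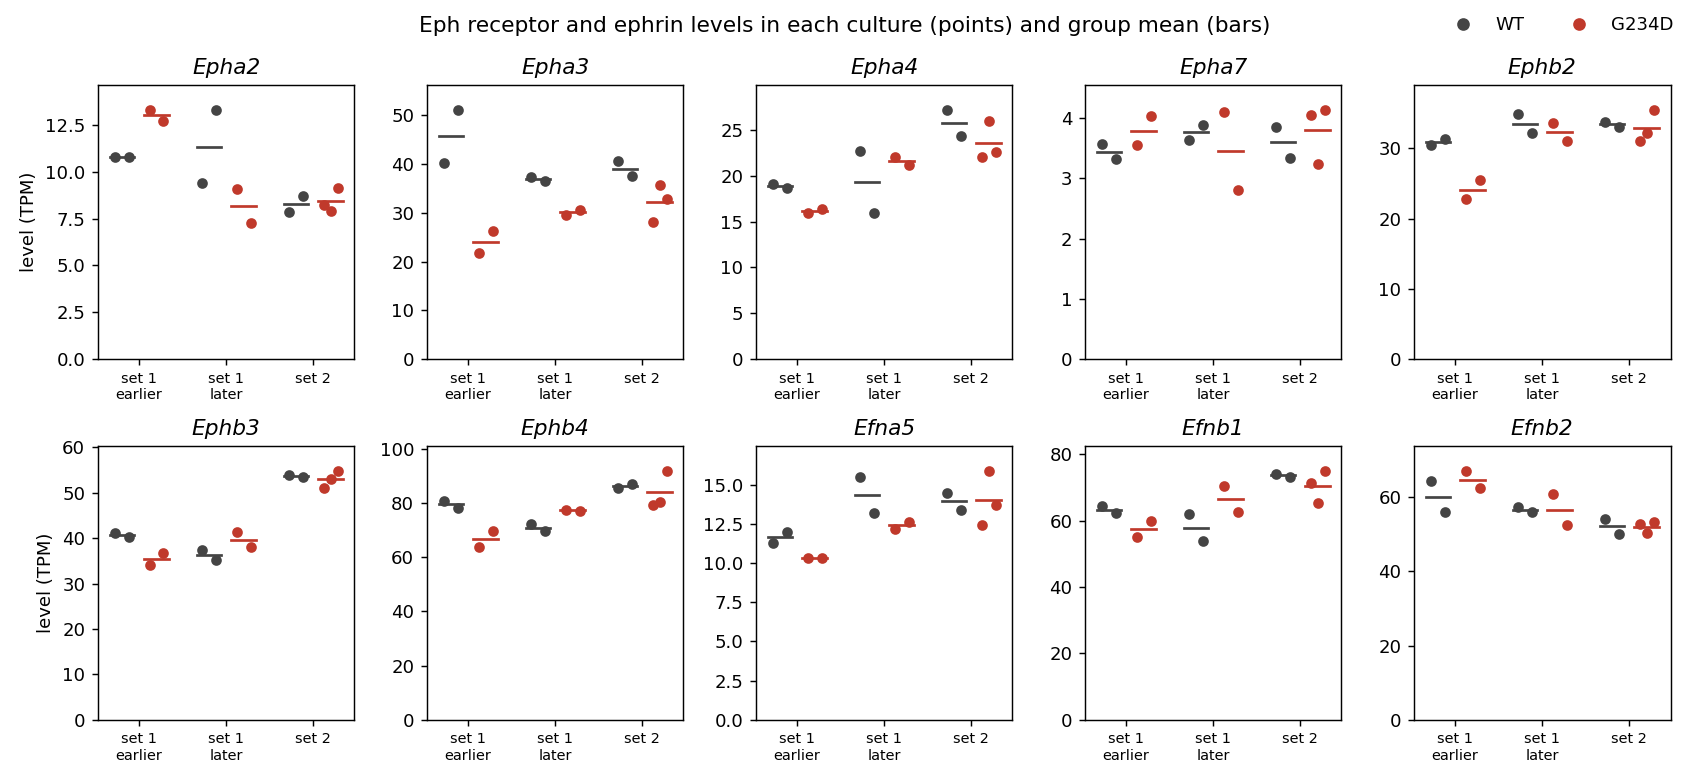
Level (TPM, axes from 0) of each of the 10 genes in each culture, as points, with the mean of the group as a bar, for earlier and later animals of set 1 and for set 2. Epha3 was lower in every G234D culture (21.7 to 35.6 TPM) than in any WT culture (36.5 to 51.1 TPM), whereas Ephb4, Ephb3 and Efnb1 were lower in G234D among the earlier animals and higher among the later animals, both without overlap.

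For the other 9 genes the genotype difference over both sets lay between −0.13 (Ephb2, SE 0.0790, interval −0.30 to 0.03) and 0.03 (Efnb2, SE 0.0541, interval −0.08 to 0.15). Of the 10 genes 8 were negative and 2 positive, Efnb2 and Epha7, with a median of −0.05, where the median of all 11942 genes tested was 0.01. As background only, since the genes were listed with this contrast known, limma called 0% of all genes at an adjusted p under 0.05 over both sets, 0 of the 10 among them, and nothing is read from this (769 genes had an unadjusted p under 0.05). In set 1 alone it called 0% (1 gene with the replicate number as a block), and in set 2 0.00829%, 1 gene of 12060 that is none of the 10 (781 at an unadjusted p under 0.05, and 721 in set 1). Among the A receptors, Epha2 differed by −0.05 (SE 0.119), Epha4 by −0.06 (SE 0.0909) and Epha7 by 0.02 (SE 0.0843). Among the B receptors, Ephb3 differed by −0.03 (SE 0.0485) and Ephb4 by −0.05 (SE 0.0543). Of the ligands, Efna5 differed by −0.11 (SE 0.0828) and Efnb1 by −0.01 (SE 0.0586). The intervals of Ephb3, Ephb4, Efnb1 and Efnb2 reached no further than −0.17 or 0.15. Without both M1 and M2 the range over the 9 genes ran from −0.20 (Epha2) to 0.04 (Efnb1), with Ephb2 at −0.01, so its place as the lowest rested on those cultures.

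Some of the differences near 0 over both sets, those of Epha2, Epha4, Epha7, Ephb3, Ephb4, Efnb1 and Efnb2, had opposite signs in the earlier and later animals, while Ephb2 and Efna5 were negative in both. Ephb4 (chromosome 5, plus strand, 137350109 to 137378669) was 80.7 and 78.2 TPM in W1 and W2 against 63.9 and 69.6 in M1 and M2. In the later animals it was 72.3 and 69.5 TPM in W3 and W4 against 77.4 and 77 in M3 and M4. In set 2 it was 85.3 and 86.8 TPM in W5 and W6 and 79.3, 80.4 and 91.9 in M5, M6 and M7. Thus G234D cultures were lower among the earlier animals and higher among the later animals, without overlap in either, and overlapped with WT in set 2. The earlier side of this crossing rests on M1 and M2 alone, so it cannot be looked at without them. The genotype difference of Ephb4 was −0.25 in the earlier and 0.12 in the later animals, and these differed by 0.37 (SE 0.0827, adjusted p = 0.0487 with limma over 11905 genes). It was the only 1 of the 10 genes past this test, against 2.81% of all genes (0.932% positive and 1.87% negative), and the call is close to its limit: it was lost with a pseudocount of 0.1 (adjusted p = 0.0511), with no filter (0.0809), with median-of-ratios scaling (0.0539) and without any 1 culture other than M2 (0.0524 to 0.188).

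**Figure D3:**
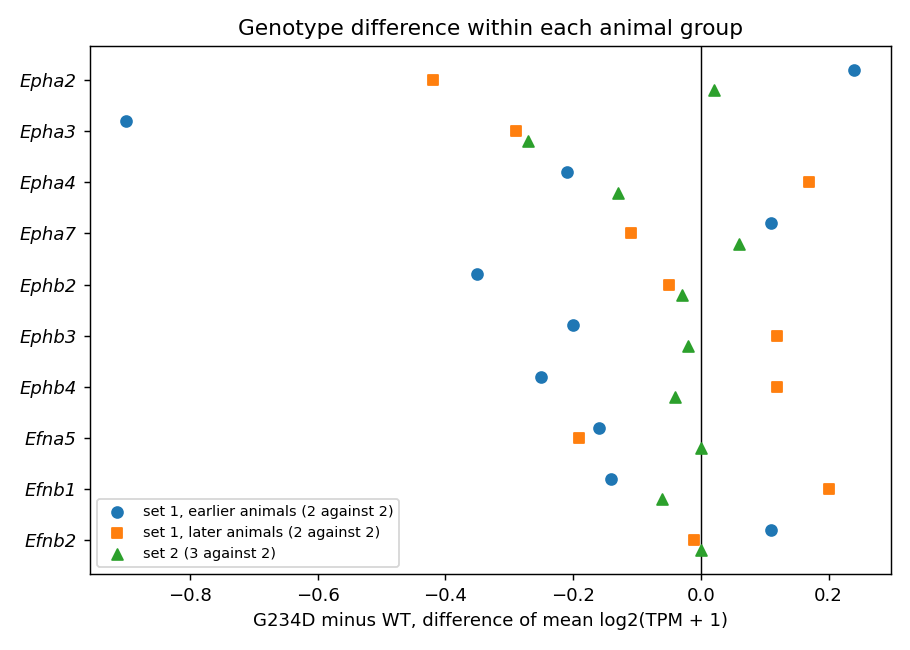
G234D minus WT difference of mean log2(TPM + 1) for each gene in the earlier animals (circles), the later animals (squares) and set 2 (triangles). Epha3 lies left of 0 in all 3 groups (−0.90, −0.29 and −0.27), while Ephb4 lies at −0.25, 0.12 and −0.04.

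Ephb3, another EphB receptor, was 41.2 and 40.2 TPM in W1 and W2 against 34.0 and 36.7 in M1 and M2. It was 37.5 and 35.1 TPM in W3 and W4 against 41.4 and 38.0 in M3 and M4. Efnb1 was 64.4 and 62.2 TPM in W1 and W2 against 55.1 and 59.9 in M1 and M2. It was 62.0 and 53.9 TPM in W3 and W4 against 70.4 and 62.5 in M3 and M4. Both genes repeated the crossing of Ephb4 without overlap, and their genotype differences differed by 0.32 (SE 0.0995, adjusted p = 0.114 with limma) and 0.33 (SE 0.118, adjusted p = 0.156 with limma), short of the threshold. This crossing was seen in 3 of the 10 genes and in 7.55% of 11905 genes. Epha2 crossed the other way, as 6.80% of all genes did: it was 10.8 TPM in both W1 and W2 and 13.3 and 12.7 in M1 and M2, then 9.37 and 13.3 in W3 and W4 against 9.09 and 7.25 in M3 and M4. The change of its difference was −0.66 (SE 0.213, adjusted p = 0.129 with limma).

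Ephb2 was 30.5 and 31.4 TPM in W1 and W2 against 22.8 and 25.5 in M1 and M2, and between 31.0 and 35.5 TPM in all later animals and set 2 cultures. Its 2 lowest values were thus those of M1 and M2, and its genotype differences by animal group were −0.35, −0.05 and −0.03. Epha3 had the largest change of the receptors that were lower in M1 and M2, 0.62 between later and earlier animals (SE 0.164, adjusted p = 0.0836 with limma). In all, 7 of the 10 genes were lower in M1 and M2 than in W1 and W2 without overlap (Epha3, Epha4, Ephb2, Ephb3, Ephb4, Efna5 and Efnb1), where 30.2% of all genes were. These are the cultures with the highest Schwann cell and muscle markers, and the part of those cells was not tested. The genotype difference of Epha3 also differed between the sets by 0.32 (SE 0.201, adjusted p = 0.891 with limma), and none of the 10 genes or of all genes passed that test (0%, with 691 genes at an unadjusted p under 0.05).

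The earlier and later animals differed in Efna5, in a division drawn with earlier results known. The gene lies on the minus strand of chromosome 17 from 62604184 to 62881317. It was 11.3, 12, 10.3 and 10.3 TPM in the earlier animals W1, W2, M1 and M2 and 15.5, 13.2, 12.2 and 12.6 TPM in the later animals W3, W4, M3 and M4. All later animals were above all earlier ones, and set 2, at 12.4 to 15.9 TPM, overlapped with the later animals only. Later minus earlier, with genotype as a covariate, was 0.26 (SE 0.0652, 95% interval 0.12 to 0.41, adjusted p = 0.0439 with limma). The difference was 0.28 in WT and 0.25 in G234D cultures. Efna5 was the only 1 of the 10 genes called, where 7.14% of all genes were (850 of 11905, with 2.79% higher and 4.35% lower in later animals), and the only 1 without overlap, where 5.70% of genes were higher and 9.77% lower in all later animals. The call was kept only without W4 when cultures were left out in turn (adjusted p = 0.0416 to 0.138), and without both M1 and M2 the difference was 0.28 with an adjusted p of 0.373, when 13 genes in all were called.

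Ephb2 had the same difference as Efna5, 0.26 (SE 0.0727, adjusted p = 0.0604 with limma), which passed after median-of-ratios scaling (0.0414) and without W4 (0.0442). Without both M1 and M2 it was 0.11 (adjusted p = 0.636). It was 0.41 in G234D and 0.11 in WT cultures. Efnb2 was at −0.14 (SE 0.0642, adjusted p = 0.200 with limma), Epha2 at −0.28 (SE 0.156, adjusted p = 0.281 with limma) and Epha4 at 0.20 (SE 0.113, adjusted p = 0.288 with limma). Epha3, Epha7, Ephb3, Ephb4 and Efnb1 lay between −0.01 and 0.04, with intervals that reached from −0.30 to 0.33 at the widest, that of Epha3. For Epha3 the small value joined −0.29 in WT to 0.33 in G234D cultures.

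**Figure D4:**
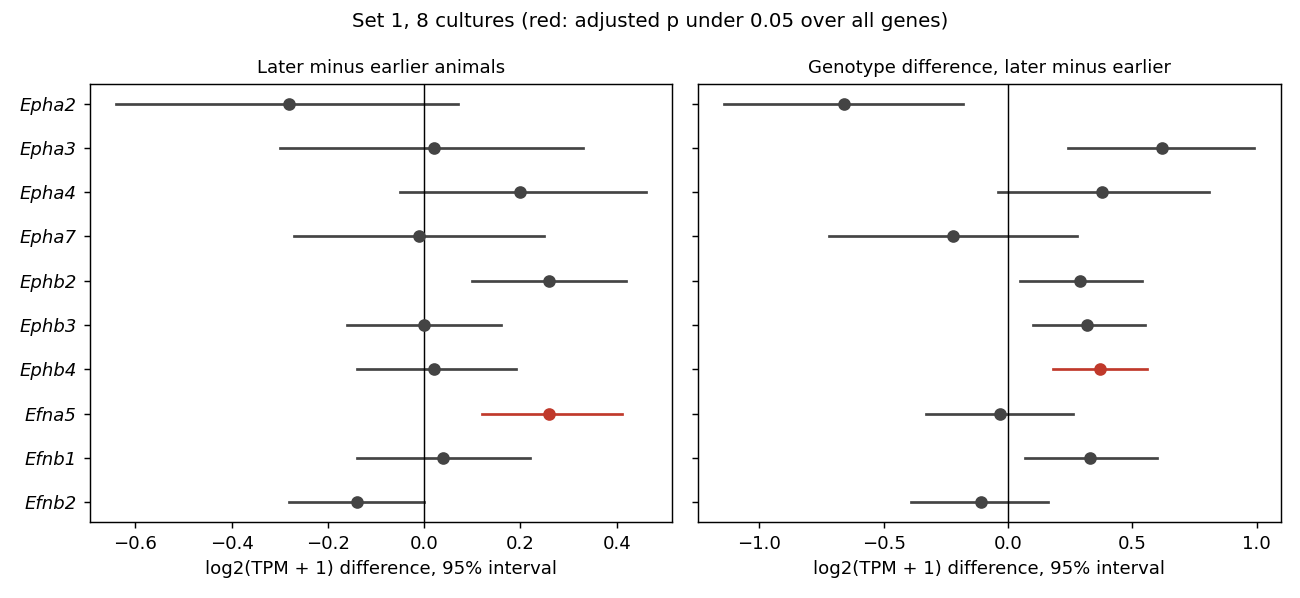
Set 1 differences of log2(TPM + 1) with 95% intervals for the 10 genes: left, later minus earlier animals with genotype as a covariate; right, the genotype difference of later animals minus that of earlier animals. Efna5 (0.26, left) and Ephb4 (0.37, right) were the genes at an adjusted p under 0.05 over all genes.

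Between the sets Ephb3 stood at different levels without overlap, but the share of all genes that did so was not computed, so nothing is read from it. It was 51 to 54.9 TPM in the 5 cultures of set 2 and 34.0 to 41.4 TPM in the 8 of set 1. The ranges of Epha4 (22 to 27.2 TPM in set 2, 15.9 to 22.7 in set 1) and Efnb2 (50.2 to 54.2 and 52.4 to 67.2 TPM) overlapped. Among the family genes outside the list, Efna4 was narrowly apart too, at 25.9 to 27.9 TPM in set 2 and 18.0 to 25.8 TPM in set 1. The series text describes set 2 as added cultures, so differences between animals and in handling cannot be told apart, and these levels were not tested.

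Among the other 12 family members, 7 passed the filter. Epha6 was listed at 0 in 13 of 13 cultures, and Epha8, Epha10 and Ephb1 reached at most 0.115 TPM. Epha5 was 0.953 and 0.884 TPM in M1 and M2 and at most 0.365 TPM elsewhere. Epha1, a receptor of epithelia, was 13.9 and 11.4 TPM in M1 and M2 and 3.40 to 8.41 TPM elsewhere, and its genotype difference changed by −1.17 between earlier and later animals (SE 0.260, adjusted p = 0.0502 with limma). Both genes thus had their highest values in the cultures with the highest Schwann cell and muscle markers, and the part of those cells was not tested. Of the ligands, Efna4, the most abundant ephrin-A, was 18.0 to 27.9 TPM, Efna2 8.10 to 13.8, Efna1 2.51 to 8.30, Efna3 2.32 to 5.78 and Efnb3 0.516 to 2.24 TPM. Ephb6, a receptor without kinase activity, was 5.61 to 9.39 TPM.

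Efna2 was 13.2 and 11.8 TPM in W1 and W2 against 8.84 and 8.10 in M1 and M2. It was 10.5 and 10.2 TPM in W3 and W4 against 11.5 and 11 in M3 and M4. It crossed as Ephb4 did, with differences of −0.51 and 0.10 that differed by 0.61 (SE 0.130, adjusted p = 0.0426 with limma). The same crossing without overlap was seen in 4 of the 7 other family genes that passed the filter (Ephb6, Efna1, Efna2 and Efna4), against 7.55% of all genes tested. Efna3 was 3.45, 3.39, 4.57 and 5.17 TPM in W1, W2, M1 and M2 and 2.32, 2.78, 3.28 and 3.52 TPM in W3, W4, M3 and M4. Its later minus earlier difference was −0.37 (SE 0.0927, adjusted p = 0.0458 with limma). These were the only calls among the 7 genes, in either test. Neither held without most single cultures (adjusted p = 0.0499 to 0.155 for Efna2 and 0.047 to 0.169 for Efna3), and without both M1 and M2 Efna3 was at −0.32 with an adjusted p of 0.471.

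Genes that carry Eph and ephrin signals inside the cell were called about as often as all genes. The list held 50 adaptors, kinases, GTPase regulators, proteases and phosphatases, of which 44 were tested in set 1. In later against earlier animals 10 were positive and 34 negative (median −0.07, against −0.02 over all genes), and 2 were called, both lower in later animals, where 7.14% of all genes were called and 4.35% were lower. Src, a kinase recruited by activated receptors, was 66.8 ± 2.26 and 54.8 ± 3.74 TPM in earlier and later animals (SD, n = 4 each), a difference of −0.28 (SE 0.0537, adjusted p = 0.0255 with limma). Ptpn11, which encodes the phosphatase SHP2, was 136 ± 5.23 and 117 ± 5.58 TPM (SD, n = 4 each), a difference of −0.22 (SE 0.0482, adjusted p = 0.0329 with limma). Without both M1 and M2 Src was at −0.22 (adjusted p = 0.356) and Ptpn11 at −0.13 (adjusted p = 0.471). With single cultures left out, Src kept its call in 5 of 8 fits (lost without W1, M1 or M2; adjusted p = 0.0273 to 0.102) and Ptpn11 in 2 of 8 (kept without W2 or W3; 0.0355 to 0.129). The scaffold gene Bcar1 was at −0.16 (adjusted p = 0.0693 with limma), and at −0.07 without both M1 and M2. For genotype over both sets 25 of 45 tested genes were positive and 20 negative (median 0.01), and 0 were called. The smallest p values belonged to Pick1, a PDZ protein that can bind ephrin-B tails, at 0.19 (SE 0.0619), Dok1, an adaptor, at −0.13 (SE 0.0472), Nck2, an adaptor, at −0.07 and Adam10, the protease that sheds ephrins, at 0.07. Without both M1 and M2 they were at 0.24, −0.14, −0.08 and 0.01.

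Over the 13 cultures, with log2(TPM + 1) centred on the mean of each animal group, Ephb2 was the listed gene most like Epha3 (Pearson r = 0.86). Without M1 and M2, over 11 cultures, this r was 0.44, and Efna5 (0.68) was the most like it. Ephb3 with Ephb4 (r = 0.91) and Ephb3 with Efnb1 (r = 0.84) were alike in the same way, and Epha2 ran against Epha4 (r = −0.79); without M1 and M2 these were 0.77, 0.86 and −0.75. Among all genes tested over both sets, the highest r with Epha3 were those of Ifitm1, an interferon-induced membrane protein (0.988), Tnn, which encodes tenascin-W (0.944), Dcakd (0.942), Mex3b, an RNA-binding protein (0.936), and Cacna1g, a calcium channel subunit (0.934). The lowest were those of Laptm5, a lysosomal protein of leukocytes (−0.961), Myl1, a myosin light chain of skeletal muscle (−0.933), and Fez1 (−0.932). These extremes were picked from 11941 genes, of which 36 were beyond 0.9 in size, and the cultures share genotype and the RNA of other cells, so the values are a description. With M1 and M2 dropped only after the centring, the 8 named genes were at 0.881 to 0.979 and at −0.939 to −0.871. M1 and M2 thus still set the mean of the earlier animals in these values. For the listed genes above, the centring was done again without M1 and M2, so those values cannot be compared with these. The order rests on the division by animal number: centred on the set alone, Ifitm1 was at 0.662, Tnn at 0.651, Dcakd at 0.640, Cacna1g at 0.756 and Laptm5 at −0.683. Mex3b stayed at 0.929, and Myl1 (−0.883) and Fez1 (−0.820) changed less than those 5 genes.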

How the data were processed

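Per the file headers, the deposited unit was TPM, computed by the authors over 25655 genes in each of 13 libraries; the labels' protocols name a stranded kit and total RNA. Build mm10 comes from the submitters' processing notes, while aligner and counter are not given in those sources. Gene coordinates are from GENCODE M21. The members, lists and division by animal number were chosen with earlier results of these data known. TPM were transformed to log2(TPM + 1) and fitted with limma 3.58.1 in R 4.3.3 (trend, robust), for genes at 1 TPM in as many libraries as the smaller genotype group holds (6 over both sets, 4 in set 1, 2 in set 2). P values were Benjamini-Hochberg adjusted over all genes and called under 0.05; the models were tested on simulated data. Named genes were the family, up to 4 genes of the pathway list with the smallest p in each of 2 comparisons, and the 5 highest and 3 lowest r with Epha3; 1 gene so named is not reported here. The cultures came from separate animals. Deviations from the mean of set and genotype were correlated between same-numbered WT and G234D cultures. The r were 0.314, 0.236, 0.244 and 0.214 in set 1 and −0.155 and 0.014 in set 2. In set 1 same-numbered cultures also share the animal group, and in set 2 the deviations of W5 and W6 mirror each other by construction. Whether the replicate number pairs cultures therefore cannot be told from these values. Alternatives changed the pseudocount, filter, scaling, robust step and covariates, or left out cultures.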

Additional observations from a re-analysis of the deposited data

Results flagged for a closer look

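In the WT cultures of set 1, W1 stood apart for 2 genes. Efnb2 was at 64.4 TPM in W1 against 56.0 to 57.3 TPM in W2, W3 and W4, a gap of 0.844 of the group's range. Epha1 was at 6.87 TPM in W1 against 4.94 to 5.07 TPM, a gap of 0.936 of the range. Chance gives about 1 in 20 such groups, and 34 groups were looked at. The genotype difference of Ephb4 differed between later and earlier animals by 0.37 (adjusted p = 0.0487 with limma), and that of Efna2 by 0.61 (adjusted p = 0.0426 with limma). Both rest on M1 and M2 for the earlier animals and cannot be fitted without them.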

How the results depend on the processing

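The lower Epha3 of G234D cultures over both sets kept its direction in every setting run: it was −0.52 to −0.40 with each culture left out in turn and −0.49 to −0.36 otherwise, with −0.36 without both M1 and M2 (a setting chosen after seeing the data) and −0.49 with the replicate number as a block. Called genes for genotype in set 1 went from 0 to 1 with animal group as a covariate and to 1 with the replicate block, and ranged from 0 to 2 without single cultures. In set 2, 1 call became 0 with no filter, 0 with a filter at 10 TPM and 21 with the replicate block, and ranged from 0 to 14. Whether the numbers pair the cultures there cannot be told. For later against earlier animals, 850 calls became 269 with no filter and 13 without both M1 and M2, and ranged from 36 (without M2) to 883. The set by genotype test gave 0 to 1. For the genotype difference between animal groups, 334 became 139 with no filter and ranged from 46 (without M1) to 674 (without M3). The cause of these shifts was not tested.

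Of the 10 genes, 1 was called in later against earlier animals, 0 with no filter, 0 without a genotype term, 0 without both M1 and M2, 2 with median-of-ratios scaling and 0 to 3 without single cultures. Between animal groups 1 was called, 0 with a pseudocount of 0.1, 0 with no filter, 0 with median-of-ratios scaling, and 0 to 1 without single cultures. Efna5 lost its call at 0.26 with no filter, 0.26 without a genotype term and 0.28 without both M1 and M2, and ranged from 0.22 to 0.30. Ephb4 between animal groups lost its call at 0.37 with a pseudocount of 0.1, 0.37 with no filter and 0.36 with median-of-ratios scaling, and ranged from 0.31 to 0.43. Without both M1 and M2, the later minus earlier difference changed sign for Epha2 (0.04), Epha3 (−0.29), Epha7 (0.10), Ephb3 (−0.16), Ephb4 (−0.16) and Efnb1 (−0.13), none of which was called. Epha7 was 0.01 with median-of-ratios scaling. Without single cultures it ranged from −0.10 to 0.15 for Epha3, −0.07 to 0.10 for Epha7, −0.06 to 0.05 for Ephb3, −0.04 to 0.07 for Ephb4 and −0.03 to 0.11 for Efnb1, and the difference between animal groups from −0.14 to 0.08 for Efna5. Of 798 values of the 10 genes, Efna2 and Efna3 under alternatives, 734 kept their sign and 64 did not; 41 of the latter were untested genotype differences, none of Epha3. TPM give no depth, so no limit from counting can be stated, and each cell of set 1 by genotype and animal group held 2 cultures.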
